A study of Mus musculus with 7 samples.

Results

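The Wnt pathway genes described here are the 31 genes of the deposited table whose symbols belong to the Wnt ligands, their processing enzymes, receptors, extracellular modulators, cytoplasmic transducers and nuclear partners. They were found by a fixed pattern of gene symbols among the 7091 genes the table lists. The authors kept in it genes that passed their own adjusted threshold of 0.05 for mutant against control, so a Wnt gene is present only because it differed between these same mice. Wnt genes outside the table (the Sfrp, Ror and Kremen genes and Ctnnb1 among them) were not analysed here.

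RNA was measured by bulk sequencing of epidermis that had been separated from telogen (resting-phase) mouse skin. The 4 mutants, called KA mice, had the genotype K14-CreERT;ABCA12-cKO: the gene for the lipid transporter Abca12, needed to build the skin barrier, is deleted after tamoxifen by a recombinase that the keratin 14 promoter expresses in basal keratinocytes. The 3 controls had the genotype ABCA12-c/c, the same conditional allele without CreERT. All 7 mice received tamoxifen at 8 weeks of age, 1 mg per 40 g of body weight on 3 consecutive days, and skin was taken 2 weeks later. KA 1 and KA 2 were males and KA 3 and KA 4 females; control 2 was male and controls 1 and 3 female. Deletion and the presence of active recombinase cannot be told apart in this design. In whole epidermis, fewer cells of a type and less RNA per cell cannot be told apart either.

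Wnt proteins are secreted lipid-modified signals. The enzyme Porcn attaches the lipid, Wls carries the protein to the cell surface, and Frizzled receptors with Lrp co-receptors bind it. Reception spares beta-catenin from the destruction complex that Axin proteins scaffold, and beta-catenin then acts with Tcf and Lef factors at target genes. R-spondins raise the response by acting through Lgr receptors on Znrf3 and Rnf43, a pair of ligases that remove Frizzleds. Axin2, Nkd1, Nkd2, Znrf3, Rnf43, Apcdd1 and Lef1 are known both as parts or inhibitors of the pathway and as genes that it induces in many tissues. In skin the pathway is known for its part in hair follicle formation, in the return of resting follicles to growth and in the upkeep of basal keratinocytes.

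Of the 31 genes, 25 were lower in KA and 6 were higher. Those 6 were the ligands Wnt4, Wnt10a and Wnt11, the receptor Fzd6, the enzyme Porcn and the transcription factor Tcf7. By the authors' own calls 47.4% of all listed genes were lower in KA and 52.6% higher. The counts were refitted with edgeR's quasi-likelihood test over the whole table, scaled by the authors' size factors, which turn each library's counts into normalised reads. Adjusted p-values below are from this fit (Benjamini-Hochberg, 6746 genes, threshold 0.05). All 31 passed, and so did 6743 of the 6746 (100%), of which the higher ones made up 52.7% and the lower ones 47.3% of the genes tested. With nearly all genes passing, the adjustment changed p-values little: for Lgr5 the edgeR p was 0.0258 before and 0.0267 after it. Passing a second test on the libraries that chose the genes is not independent evidence, so the weight here is on sizes and on values by mouse. The median log2 fold change of the 31 was -0.79, against 0.36 over all genes tested. In 13 Wnt genes the fall was at least 1 on the log2 scale, and 20.7% of all tested genes fell that far. Porcn alone among the 31 rose by as much, and 41.2% of all tested genes changed by at least 1 in either direction. The groups did not overlap in 27 of the 31, where 93.5% of all tested genes did not overlap; the exceptions were Wnt11, Lgr5, Dkk3 and Tcf7.

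**Figure D1:**
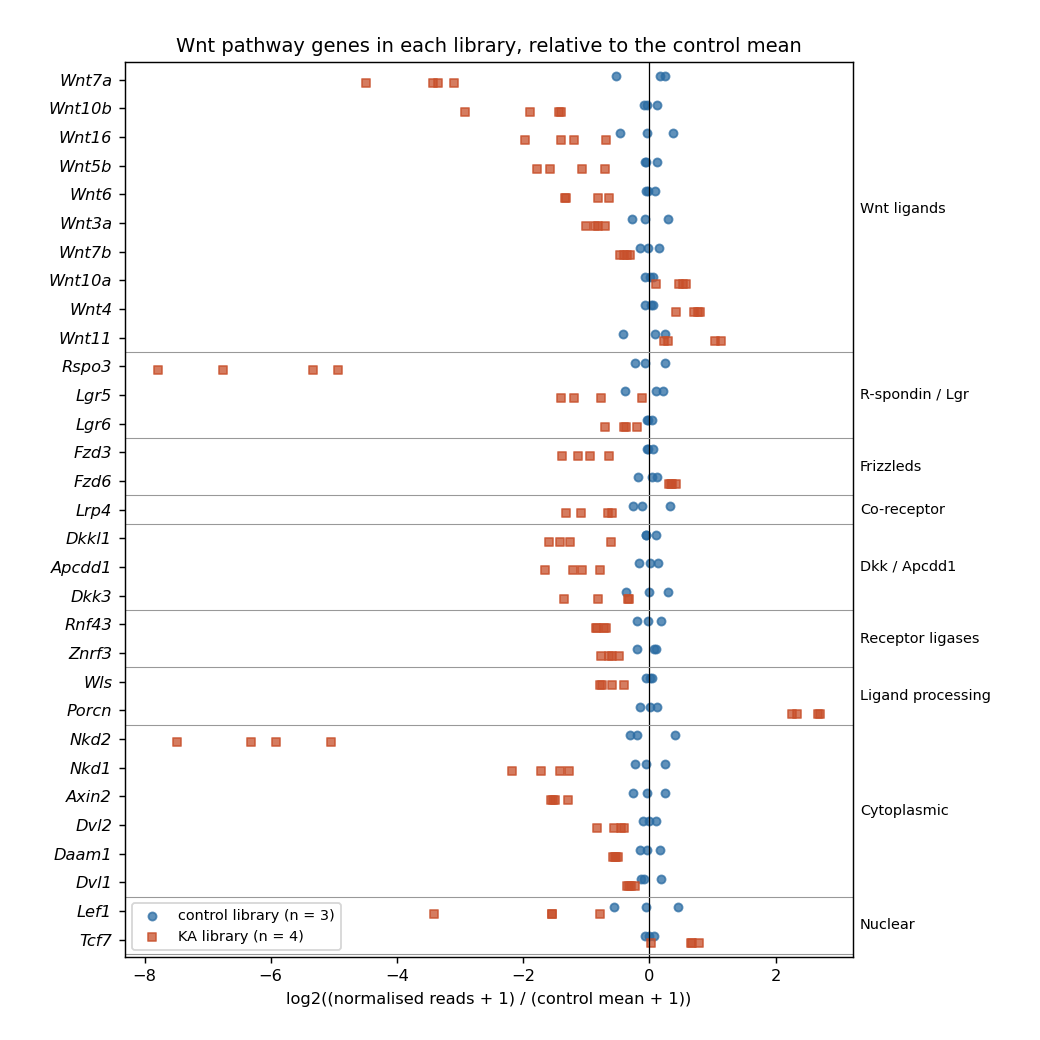
Each library's value for the 31 Wnt pathway genes, as log2 of (normalised reads + 1) over (control mean + 1), with genes grouped by role; circles are the 3 control libraries and squares the 4 KA libraries. Rspo3 and Nkd2 lie far to the left in every KA library, Porcn lies to the right, and Wnt11, Lgr5, Dkk3 and Tcf7 have KA squares within the span of the control circles.

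Start-site sequences of 3 members are shown, picked after their values were seen. Axin2 and Nkd2 fell steeply, and Wnt11 was higher, with overlapping groups. Each is the stretch of 250 bases before a RefSeq start on GRCm38.p6, read 5′ to 3′ on the gene's strand. Capitals mark a Tcf/Lef motif, spelled CTTTGAT or, on the other strand, ATCAAAG. The windows are chr11:108920099-108920348 on the plus strand for Axin2, chr13:73847632-73847881 on the minus strand for Nkd2 and chr7:98834862-98835111 on the plus strand for Wnt11.
Axin2: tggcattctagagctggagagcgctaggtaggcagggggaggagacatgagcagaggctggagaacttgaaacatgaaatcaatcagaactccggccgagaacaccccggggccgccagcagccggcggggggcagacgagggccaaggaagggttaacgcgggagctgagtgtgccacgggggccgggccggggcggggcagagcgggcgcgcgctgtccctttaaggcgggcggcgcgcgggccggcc
Nkd2: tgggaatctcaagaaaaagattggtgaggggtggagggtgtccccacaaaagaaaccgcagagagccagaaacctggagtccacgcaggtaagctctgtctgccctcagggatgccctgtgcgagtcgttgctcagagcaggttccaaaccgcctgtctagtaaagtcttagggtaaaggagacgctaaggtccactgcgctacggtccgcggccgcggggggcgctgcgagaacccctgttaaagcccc
Wnt11: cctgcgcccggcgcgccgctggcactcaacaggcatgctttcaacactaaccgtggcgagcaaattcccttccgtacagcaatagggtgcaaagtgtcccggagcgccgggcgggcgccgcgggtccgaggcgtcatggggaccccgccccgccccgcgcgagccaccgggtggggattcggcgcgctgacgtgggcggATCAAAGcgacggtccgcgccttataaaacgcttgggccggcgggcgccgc
The motif was found once in the Wnt11 window, beginning 51 bases before the start, and not in the Axin2 or Nkd2 window. Start sites were matched by symbol for 20 of the 31 genes. Counting every start of those genes, 2 of 29 windows held the motif (6.9%), against 3.21% of all 32851 windows in the RefSeq set and 2.42% of the windows of listed genes. The second belongs to an alternative start of Wnt5b, which fell, 71 bases before that start. With only the start nearest each gene's 5′ end taken, Wnt11 alone held the motif, 1 of 20 genes (5.0%). The windows of Wnt4 and Tcf7, which were also higher, held none. These letters describe the window and do not locate a binding site.

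The ligands were measured in 10 genes. Normalised reads were divided by gene length to compare levels between genes. In controls Wnt10a had the highest level, 811 ± 32.4 normalised reads per kb (SD, n = 3), with Wnt4 at 754 ± 35.2 and Wnt7b at 525 ± 54 (SD, n = 3). Wnt3a and Wnt6 followed at 188 ± 38.3 and 181 ± 9.6 per kb (SD, n = 3), a difference smaller than the spread of either. Wnt10b stood at 119, Wnt16 at 44.4, Wnt11 at 37, Wnt5b at 36.7 and Wnt7a at 13.7 per kb. Neighbours in this order whose ranges of mean ± SD overlapped were Wnt10a and Wnt4, Wnt3a and Wnt6, and Wnt16, Wnt11 and Wnt5b. In KA the order at the top was Wnt4, at 1209 ± 137, then Wnt10a, at 1095 ± 152 per kb (SD, n = 4), again closer than their spread.

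Wnt4, a ligand expressed by basal keratinocytes, had the largest rise in reads. Controls 1 to 3 had 2997, 3199 and 3285 normalised reads, while KA 1 to KA 4 had 5505, 5165, 5378 and 4235. Every KA mouse stood above every control, with KA 4 nearest to them. The log2 fold change was 0.68 (SE 0.13; edgeR adjusted p = 0.000765). Wnt10a, which is known from human tooth and hair defects, had 2071, 2019 and 1913 normalised reads in controls and 2889, 2776, 2154 and 2988 in KA. KA 3 was close to the controls and the other KA mice were well above them. Its log2 fold change was 0.43 (SE 0.13; edgeR adjusted p = 0.0102). Wnt11, mostly associated with signalling independent of beta-catenin, had 183, 114 and 162 normalised reads in controls and 189, 315, 336 and 179.6 in KA. KA 4 lay below control 1, so the groups overlapped, and the log2 fold change of 0.73 had an SE of 0.27 (edgeR adjusted p = 0.0232).

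The other 7 ligands fell. Wnt7a had the steepest fall: controls held 49.2, 51.5 and 29.7 normalised reads, and KA mice 0.989, 3.38, 4.18 and 3.11. These KA values stand for 1, 3, 4 and 3 reads, so the log2 fold change of -3.85 (SE 0.46; edgeR adjusted p = 6.83e-05) rests on very few counts. Wnt10b, a ligand known for driving follicles into growth, had 439, 396 and 383 normalised reads in controls against 52.4, 108, 149 and 154 in KA. All KA mice were far below the controls, KA 1 most of all, and the log2 fold change was -1.81 (SE 0.30; edgeR adjusted p = 0.000465). Its close relative Wnt10a went the other way. Wnt16 (188, 140.2 and 253 in controls; 48.5, 84.5, 73.1 and 120.4 in KA) and Wnt5b (93.7, 92.8 and 106 in controls; 27.7, 59.7, 46 and 32.2 in KA) each fell with a log2 fold change near the same size, -1.25 and -1.24.

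Wnt6 and Wnt10a are neighbours on chromosome 1 and moved in opposite directions. Wnt6 spans 74771892 to 74785322 and Wnt10a spans 74791516 to 74804179 of GRCm38, both on the plus strand, with 6193 bases between them. Wnt6 had 420.4, 380.4 and 389 normalised reads in controls and 158, 225, 253 and 156 in KA. Its groups were well apart, at a log2 fold change of -1.002 (SE 0.20; edgeR adjusted p = 0.00111), beside the rise of Wnt10a given above.

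Wnt3a, a canonical ligand, had 634, 493 and 427 normalised reads in controls and 319.5, 257, 286 and 294 in KA, which is -0.84 as a log2 fold change (SE 0.16). The KA mice were close to one another and the controls were spread. Wnt7b, expressed in epidermis and follicle, had 2541, 2324 and 2850.2 in controls and 2008, 1954, 1869 and 2069 in KA, which is -0.38 as a log2 fold change (SE 0.11; edgeR adjusted p = 0.00875). This was the smallest fall among the ligands. Wnt7b shares 324 exonic bases with AU022754, a gene on the opposite strand that is listed with a log2 fold change of -1.68. The strand setting of the counting is not given in the sources used here, so reads in that stretch may belong to either.

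The makeup of the listed ligands shifted towards Wnt4 and, less evenly, towards Wnt10a, while a difference in their summed level depended on the scaling. With the authors' size factors the sum was 2709 ± 66.3 normalised reads per kb in controls (SD, n = 3) and 3033 ± 119 in KA (SD, n = 4). KA libraries ran from 2916 to 3164 and controls from 2634 to 2761, a log2 ratio of 0.16. In an alternative added after the data were seen, the ratio was 0.027 with TMM, 0.032 with upper quartile and -0.011 with RLE factors, and the groups overlapped under each of these. Shares within a library do not depend on its size factor. Wnt4 made up 27.8% ± 1.7 of that sum in controls (SD, n = 3) and 39.8% ± 4.13 in KA (SD, n = 4). Wnt10a made up 29.9% ± 1.39 in controls (SD, n = 3) and 36.1% ± 4.6 in KA (SD, n = 4). Its share in KA 3, 29.9%, lay below those of control 1 (30.4%) and control 2 (31.0%), so the groups overlapped. Wnt7b went from 19.4% ± 1.72 to 13.3% ± 0.684, Wnt3a from 6.92% ± 1.33 to 3.45% ± 0.306 and Wnt10b from 4.4% ± 0.28 to 1.14% ± 0.492 (SD, n = 3 and n = 4). Wnt4, Wnt10a and Wnt7b together held 75.1% to 78.4% of the sum in controls and 87% to 91.4% in KA. These shares cover the listed ligands alone.

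**Figure D2:**
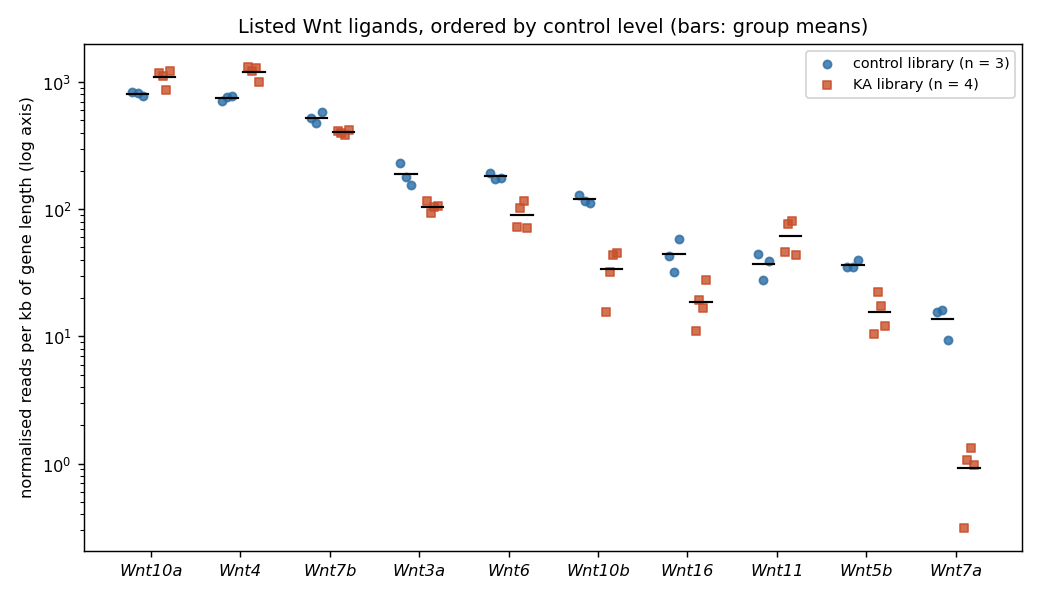
Normalised reads per kb of gene length (log axis) of the 10 listed Wnt ligands, ordered by their control mean; circles are 3 control libraries, squares 4 KA libraries and bars group means. Wnt10a, Wnt4 and Wnt11 have higher means in KA, the other 7 have lower ones, and Wnt7a drops from 13.7 to 0.919 per kb.

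The genes that prepare ligands for release were opposed. Porcn (ENSMUSG00000031169, chromosome X, 8193848 to 8206525 on the minus strand of GRCm38), the acyltransferase that lipidates Wnt proteins, had 143, 159 and 172 normalised reads in controls. It had 1029.7, 1015, 758 and 805 in KA, so the lowest KA mouse was several times above the highest control. The rise was 5.71-fold, a log2 fold change of 2.51 (SE 0.17; edgeR adjusted p = 2.57e-06), the largest among the 6 genes that were higher. Wls (chromosome 3, 159839672 to 159938664), the carrier of lipidated Wnt proteins, had 3503, 3729 and 3654 normalised reads in controls and 2105, 2163, 2394 and 2747 in KA. All KA mice were below all controls, with a log2 fold change of -0.63 (SE 0.12; edgeR adjusted p = 0.00104). Per kb, Wls exceeded Porcn in controls, 413 against 52.6, while in KA the means were 268 and 301. The gene next to Porcn, 335 bases away on the same strand, is Ebp, an enzyme of cholesterol synthesis, which was also higher in KA (log2 fold change 1.34). Ebp lies beyond the 3′ end of Porcn, so transcription running on past Porcn would enter Ebp, not the reverse. Whether such reads contribute to the value of Ebp was not tested.

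R-spondin 3 nearly disappeared. Rspo3 (ENSMUSG00000019880, chromosome 10, 29452416 to 29535867 on the minus strand) had 262, 209 and 188 normalised reads in controls 1 to 3. In KA 1 to KA 4 it had 0, 4.51, 1.04 and 6.23, which stand for 0, 4, 1 and 6 reads. The gap between the groups was wide in every mouse, and the log2 fold change was -6.19 (SE 0.49; edgeR adjusted p = 7.41e-06), the largest of the 31. Rspo3 shares 404 exonic bases with Gm48159 on the opposite strand, a gene outside the table. Per kb the control level of Rspo3, 71.2, lay between those of Wnt10b and Wnt16.

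Its receptors fell far less. Lgr6, which marks stem cells of the upper follicle and gland, had 2313, 2340.2 and 2437 normalised reads in controls and 1446, 2069.7, 1790.2 and 1831 in KA. All KA mice were lower, at a log2 fold change of -0.41 (SE 0.13; edgeR adjusted p = 0.0128). Lgr5, a marker of the lower bulge and hair germ, had 135, 192 and 205 in controls and 66.3, 104, 164 and 76.8 in KA. KA 3 stood above control 1, so the groups overlapped, and the log2 fold change of -0.79 had an SE of 0.31 (edgeR adjusted p = 0.0267). The fall of Lgr5 did not pass without control 2, control 3, KA 1, KA 2 or KA 4, with adjusted p from 0.0507 to 0.0899. Per kb, Lgr6 was at 345 in controls and 260.5 in KA, and Lgr5 at 17.3 and 10.

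Rnf43 and Znrf3, the ligases on which R-spondins act, fell together. Rnf43 had 1173, 1010.3 and 902 normalised reads in controls and 573, 577, 635 and 626 in KA. The KA mice were within a narrow band below all controls, with a log2 fold change of -0.77 (SE 0.13; edgeR adjusted p = 0.000414). Znrf3 had 631, 643 and 524 in controls and 383, 350.4, 397 and 427 in KA, which is -0.62 as a log2 fold change (SE 0.14; edgeR adjusted p = 0.00192). Again no KA mouse reached the lowest control.

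A pair of Frizzled receptors was listed, and they moved in opposite directions. Fzd3, best known for planar cell polarity in skin and brain, had 350.3, 354 and 377 normalised reads in controls and 137, 229.8, 164 and 188 in KA, a 2.01-fold fall (SE 0.19 on the log2 scale; edgeR adjusted p = 0.000858). Fzd6, which orients hair follicles, had 2143, 2021 and 1728 in controls and 2484, 2428, 2631 and 2523 in KA. Its KA values were tight and above all controls, and the log2 fold change was 0.36 (SE 0.11; edgeR adjusted p = 0.0125). Per kb Fzd6 was the more abundant in both groups, at 408 and 522 against 28.1 and 14 for Fzd3. Lrp4, a relative of the Wnt co-receptors that binds secreted Wnt inhibitors, had 5172, 3444 and 3813 normalised reads in controls and 1666, 1965, 2742 and 2629.8 in KA. Its groups did not overlap, and the log2 fold change was -0.88 (SE 0.20; edgeR adjusted p = 0.00219).

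Extracellular and membrane inhibitors were lower. Apcdd1, a membrane-bound Wnt inhibitor in which mutation causes hereditary hair loss in people, had 3539, 2895 and 3255 normalised reads in controls and 1022, 1390.3, 1884 and 1548 in KA. The groups were well apart, at a log2 fold change of -1.14 (SE 0.18; edgeR adjusted p = 0.000322). Dkk3, a divergent Dickkopf protein found in the bulge, had 545, 702 and 857 in controls and 275, 562, 400.02 and 556 in KA. KA 2 and KA 4 lay just above control 1, and the log2 fold change was -0.65 (SE 0.25; edgeR adjusted p = 0.0255). It did not pass without control 2, control 3 or KA 3, with adjusted p from 0.0549 to 0.109. Dkkl1, a relative of Dkk3 grouped here by name, had 1990.0, 2001 and 2226 in controls and 866, 689.5, 1366 and 773 in KA. All KA mice were lower, KA 3 least, at a log2 fold change of -1.17 (SE 0.21; edgeR adjusted p = 0.00069).

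All 6 cytoplasmic genes fell, and the inhibitors Nkd2, Nkd1 and Axin2 fell most. Nkd2 (ENSMUSG00000021567, chromosome 13, 73818534 to 73847631 on the minus strand), which binds Dishevelled and dampens the signal, had 1404, 861 and 924 normalised reads in controls. It had 4.95, 12.4, 16.7 and 31.1 in KA, so the highest KA mouse was far under the lowest control. The log2 fold change was -6.02 (SE 0.39; edgeR adjusted p = 4.87e-06). Its relative Nkd1 was scarce already in controls, at 30.3, 26.8 and 37.7, and had 8.9, 11.3, 12.5 and 6.23 in KA, which is -1.69 as a log2 fold change (SE 0.36; edgeR adjusted p = 0.00172). Per kb Nkd2 stood at 220.2 and Nkd1 at 6.93 in controls, and at 3.38 and 2.14 in KA.

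Axin2 (ENSMUSG00000000142, chromosome 11, 108920349 to 108950783 on the plus strand), a scaffold of the destruction complex and the most widely used readout of the pathway, had 2540.1, 2093 and 1790.0 normalised reads in controls 1 to 3. It had 759.7, 741, 874 and 725 in KA 1 to KA 4. The KA mice were close together and far below the lowest control. The fall was 2.76-fold, a log2 fold change of -1.47 (SE 0.14; edgeR adjusted p = 2.17e-05).

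The signal transducers of the Dishevelled family fell less than Nkd2, Nkd1 and Axin2. Dvl1 had 2935, 2448 and 2368 normalised reads in controls and 2021, 2102, 2199.6 and 2075 in KA, which is -0.30 as a log2 fold change (SE 0.12; edgeR adjusted p = 0.026), the smallest of the 31. It did not pass without control 1 or KA 2, with adjusted p of 0.119 and 0.0581. Dvl2 had 1030.1, 896 and 951 in controls and 540.1, 703, 726 and 648 in KA, which is -0.55 as a log2 fold change (SE 0.13; edgeR adjusted p = 0.00339). Its exons share 1151 bases with Acadvl on the opposite strand, which was higher in KA (log2 fold change 0.46), so reads of that stretch are uncertain. Daam1, a formin that links Dishevelled to the cytoskeleton, had 2195, 1893 and 1755 in controls and 1307, 1332, 1379.7 and 1348 in KA, which is -0.54 as a log2 fold change (SE 0.11; edgeR adjusted p = 0.00167). Its KA values were nearly equal in the 4 mice.

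Among the nuclear factors Lef1 fell and Tcf7 rose. Lef1, known for hair germ and hair matrix, was scarce, with 13.3, 27.8 and 19.2 normalised reads in controls and 0.989, 11.3, 6.27 and 6.23 in KA. Those KA values stand for 1, 10, 6 and 6 reads, and KA 2 came close to control 1. The log2 fold change was -1.70 (SE 0.56; edgeR adjusted p = 0.014), and without control 2 it was -1.40 (edgeR adjusted p = 0.0593). Lef1 shares 1208 exonic bases with Gm43352 on the opposite strand, a gene outside the table, so reads in that stretch may belong to either. Wnt11, Axin2, Fzd6 and Dvl1 share shorter stretches with opposite-strand genes outside the table. Tcf7, also a factor of T cells, had 245, 223 and 233 in controls and 402, 373, 237 and 371 in KA. KA 3 lay among the controls and the other KA mice above them, at a log2 fold change of 0.57 (SE 0.20; edgeR adjusted p = 0.0171).

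**Figure D3:**
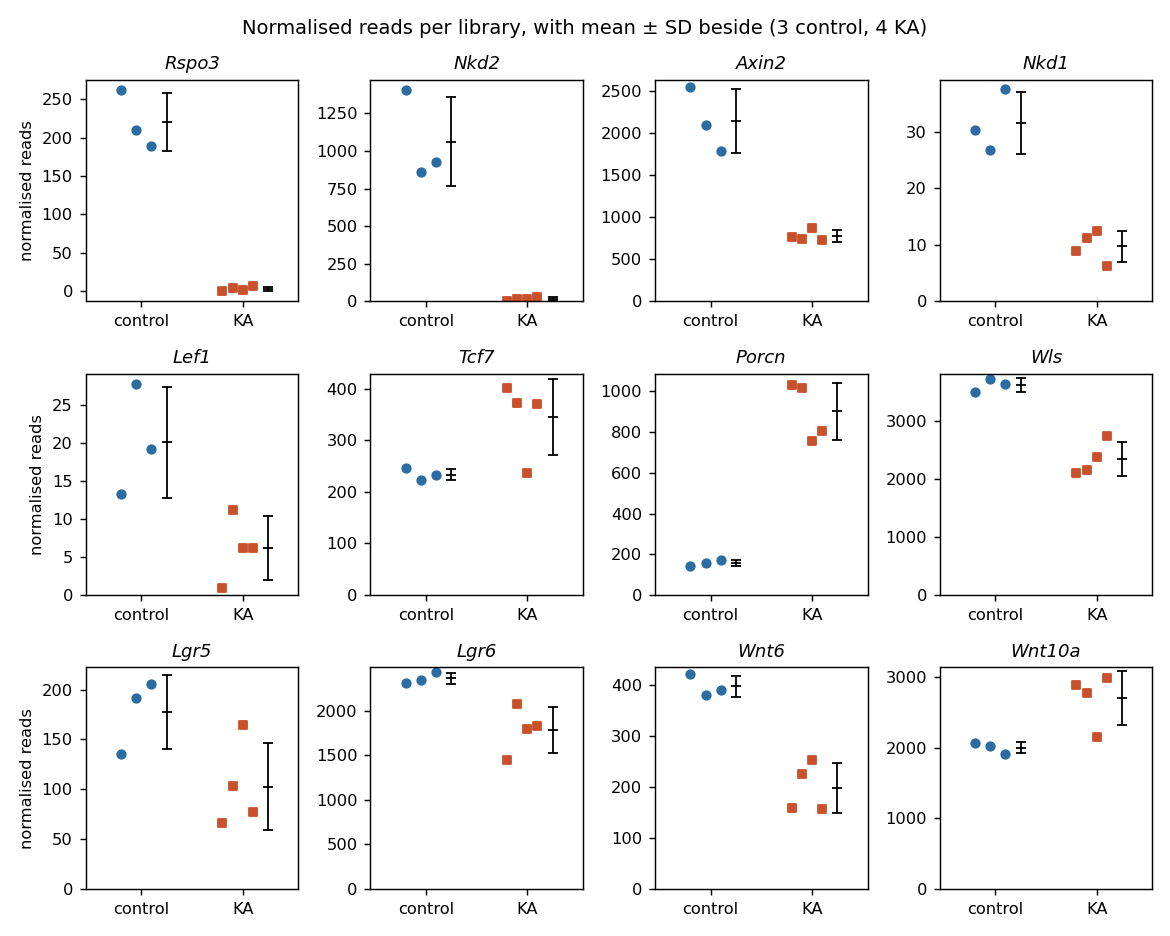
Normalised reads in each of 3 control libraries (circles) and 4 KA libraries (squares) for 12 Wnt pathway genes, each panel with its own linear axis and the mean ± SD beside the points. Rspo3 and Nkd2 sit near 0 in KA, Porcn rises to between 758 and 1029.7, and the panels of Lgr5 and Tcf7 show overlapping groups.

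Of the 6 rises, 4 did not pass under every scaling. Size factors can also be computed from the listed genes, all of them chosen for differing, and may then depart from factors of complete libraries. TMM factors from the listed genes moved log2 fold changes by a median of -0.13, so that rises shrank and falls deepened. Under them Fzd6 (0.22, edgeR adjusted p = 0.0946), Wnt11 (0.60, adjusted p = 0.0615) and Tcf7 (0.43, adjusted p = 0.0505) did not pass. Under RLE factors, with a shift of -0.17, Wnt10a did not pass either (0.26, edgeR adjusted p = 0.0743), and the falls of Dvl1 and Wnt7b went from -0.30 to -0.47 and from -0.38 to -0.55. All the scalings tried moved values downward, so they put the 25 falls to no test. Porcn and Wnt4 passed under each scaling tried, and no Wnt gene changed direction under these. Leaving out 1 mouse also ended calls among the rises: Wnt11 without control 2, KA 2 or KA 3 (edgeR adjusted p from 0.0589 to 0.0907), Fzd6 without control 3 (0.0675) and Tcf7 without control 2 (0.0535).

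**Figure D4:**
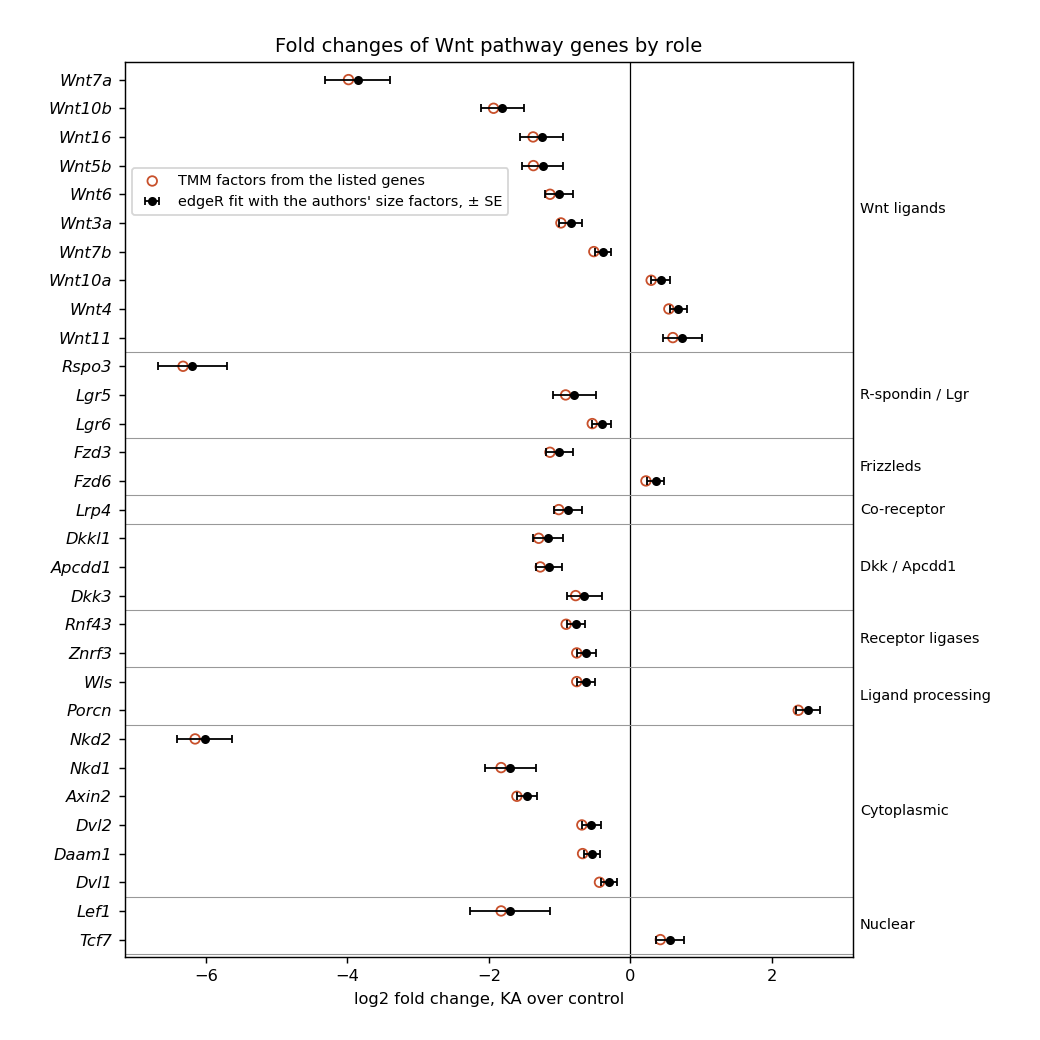
Log2 fold change of KA over control for the 31 Wnt pathway genes by role; filled points with bars are the edgeR fit with the authors' size factors ± SE, and open circles the same fit with TMM factors. The open circles lie to the left by about 0.13, which takes Fzd6 to 0.22 and leaves every direction as it was.

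The 25 lower genes were not equally low in the 4 mutants. KA 1 had the lowest value among KA mice in 18 of them, KA 2 and KA 4 in 3 each and KA 3 in 1. KA 3 had the highest value in 12, KA 4 in 7, KA 2 in 5 and KA 1 in 1. This order was not counted over the other lower genes of the table, so it is not shown to be particular to Wnt genes. Within females (2 controls, 2 KA) and within males (1 control, 2 KA) the mean ratio pointed the same way as in the pooled fit in all 31 genes. The genes were listed for differing between these same mice, so that direction was largely set in advance. The share over all listed genes was not computed. Wnt10b differed by -1.44 on the log2 scale in females and -2.30 in males, Nkd2 by -5.60 and -6.63, Lgr5 by -0.50 and -1.17, and Porcn by 2.31 and 2.69. Whether the sexes differ was not tested. Animal numbers in the titles form a lower run (4853 to 4857) and a higher run (4875 to 4877), which the labels do not call batches. Within each run the mean ratio had the pooled direction in all 31 genes, which the choice of genes favours in the same way. Axin2 stood at -1.63 in the lower and -1.16 in the higher run.

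Other genes of the pathway were read from 4 lists of 100 genes, of which 38 were in the table, 20 higher and 18 lower in KA. Over the authors' whole adjustment 36.5% of genes were listed, and 52.6% of those were higher, so these counts are at the background. The cascade list (destruction complex, beta-catenin partners and corepressors) had 11 of 30 listed, 6 higher and 5 lower, with a median log2 fold change of 0.27. Tnik, a kinase that binds Tcf factors, fell from a control level of 887 ± 202 normalised reads (SD, n = 3) to a KA level of 248 ± 53.3 (SD, n = 4), with -1.83 on the log2 scale. Pygo1, a nuclear partner of beta-catenin, went from 191 ± 30 to 51.7 ± 22 (log2 fold change -1.88). Caprin2, which aids phosphorylation of the Lrp co-receptor, went from 268 ± 29.4 to 99.4 ± 17.8 (-1.43 on the log2 scale). Csnk1g3, a casein kinase, rose from 436 ± 67.7 to 680.3 ± 48.5 (0.64 on the log2 scale).

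Planar polarity genes had 7 of 21 listed, 3 higher and 4 lower (median log2 fold change -0.57). Prickle2, a core polarity protein, fell from 902 ± 87.6 normalised reads in controls (SD, n = 3) to 365 ± 23.7 in KA (SD, n = 4), and Vangl1, a membrane partner of Prickle proteins, rose from 627 ± 92.5 to 1480.1 ± 224. Their log2 fold changes were -1.30 and 1.24. Intu, which acts in polarity and cilia, went from 131 ± 23.4 to 68.1 ± 17.4, and Prickle1 from 306 ± 7.77 to 206 ± 26.5. Of 22 further extracellular modulators 5 were listed, 2 higher and 3 lower (median -0.41). The proteoglycan Gpc3 fell from 78.2 ± 8.66 to 24.6 ± 9.76, and its relative Gpc4 rose from 1096 ± 58.6 to 1557 ± 312. Bambi, a decoy receptor that Wnt signals induce, fell from 58.7 ± 13.8 to 23.4 ± 12, and Sulf2, an extracellular sulfatase, rose from 272 ± 45.7 to 392 ± 44.5.

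Further genes known as Wnt targets in various tissues did not share a direction. Their list leaves out Axin2, Nkd1, Nkd2, Znrf3, Rnf43, Apcdd1 and Lef1, named above as genes the pathway induces. All of those fell in KA. Of the 27 genes on the list 15 were in the table. Of these 9 rose, 6 fell and the median log2 fold change was 0.78. Bmp4, a growth factor, fell from a control level of 745 ± 79.3 normalised reads (SD, n = 3) to a KA level of 113 ± 27.4 (SD, n = 4), with -2.72 on the log2 scale. Cd44, a hyaluronan receptor, rose from 2856 ± 314 to 11127 ± 1885 (log2 fold change 1.96). Ppard, a lipid-sensing nuclear receptor, rose from 773 ± 72.6 to 2089 ± 364 (1.43). Birc5, a mitotic protein, rose from 217 ± 69.8 to 996 ± 287 (2.19). Many genes on this list also answer to signals other than Wnt.

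Markers of the cells that could carry these transcripts also moved, and their part in the Wnt values was not tested. Beside the counts below stand the shares over all genes: 36.5% were listed, and 52.6% of those were higher in KA. The epidermis list had 10 of 14 genes in the table, 5 higher (Krt14, Krt1, Krt5, Ivl and Flg) and 5 lower (Itgb4, Col17a1, Lor, Krt15 and Dsg1a), with sums of 691850 to 804443 in controls and 1050630 to 1118600 in KA. Among its keratins Krt14 had 116254 ± 16504 normalised reads (SD, n = 3) in controls and 348564 ± 43207 (SD, n = 4) in KA. Beside Lgr5, Lgr6, Dkk3 and Lef1 stands the bulge and germ list, with 9 of 15 genes listed. The 5 higher were Sox9, Runx1, Postn, Gas1 and Cdh3, and the 4 lower were Krt15, Grem1, Fgf18 and Npnt. The summed level of this list was 160211 to 208865 in controls and 40358 to 94126 in KA. Most of it was Krt15, also on the epidermis list, which fell from 174948 ± 24167 to 40039.7 ± 21878. The sum therefore mainly follows Krt15 and not the 5 higher genes, of which Postn rose from 5318 ± 1157 to 16342 ± 4672. Hair matrix genes had 3 of 16 listed, Krt32 and Krt33a lower in KA and Krt71 higher by the authors' deposited table but too scarce for the refit. Their sum, mostly Krt32, was 226 to 409 in controls and 52.4 to 233 in KA. Beside Rspo3 and Nkd2, dermal fibroblast markers had 2 of 15 listed, Vim and Fbln1, both higher in KA (sums of 2082 to 2960.1 and 4601 to 5909), and dermal papilla markers 0 of 12. Endothelial markers had 3 of 10 listed, all higher (16.1 to 44.9 and 80.4 to 139). Beside Tcf7 and Lef1, T cell markers had 6 of 10 listed (sums of 1400.2 to 1801 and 836 to 956). The 4 lower were Trdc, Cd247, Cd3g and Cd3e, and the 2 higher were Trac and Cd2. Langerhans and myeloid markers had 10 of 12 listed, 8 higher (24742 to 34468 and 47263 to 69528). Schwann cell and nerve markers had 2 of 8 listed, Ngfr and Mbp, both lower (1933 to 2446 and 920.5 to 1597), and melanocyte markers 2 of 10, Dct and Mitf, both lower (328 to 551 and 247 to 335). No listed marker was at 0 in all 7 libraries.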

How the data were processed

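The authors deposited one table with raw read counts per gene for 7 mice and normalised reads (a signal scale), which are the counts divided by 1 size factor per library (0.888 to 1.247). Other columns are, per the file headers, the authors' mean signal over all samples, a log2 fold change and its error, a test score and p-values. Per the submitters' processing notes, fastp, STAR 2.6.1d, featureCounts 1.5.0-p3, DESeq2 1.40.2 and build mm10 were used, and strand handling is not given in the sources used here. All listed genes pass 0.05 in the authors' adjusted p-values, 7091 of the 19407 over which their adjustment ran (36.5%). Reads in listed genes, 9590718 to 12761458 per library, are therefore not depths. The targeted gene was not analysed here, so the genotypes could not be checked and are as labelled.

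The main test used edgeR 4.0.16 (R 4.3.3) on the counts: filterByExpr (6746 genes kept, 345 left out), library sizes set in proportion to the authors' size factors, robust glmQLFit and glmQLFTest. Each standard error was obtained by dividing the log2 fold change by the root of its F statistic. Means and SDs are of normalised reads, and each library is 1 mouse. In simulated counts for the KA comparison (6689 genes), 87 of 99 genes changed by 1 on the log2 scale and 99 of 99 changed by 2 were recovered, with 10 false calls. Few genes were changed in that simulation, while nearly all genes of the table pass. Its rates therefore do not carry over to the tests reported here. Alternatives were TMM, RLE and upper quartile factors, other filters, DESeq2 1.42.0, limma-voom (limma 3.58.1), sex, a block by sample number, leaving out each mouse, stricter thresholds and a wider adjustment. Genes and lists were chosen with earlier results of these data known. Every Wnt gene found by the symbol pattern is described, and of each other pathway list the 4 genes with the smallest adjusted p-values, while the neighbouring and overlapping genes, the keratins and the genes with printed windows were named after their values were seen. Positions are those of the table on GRCm38, with the same start and end as GENCODE M21 for 30 of the 31 Wnt genes. Start-site windows are from RefSeq (GRCm38.p6).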

Additional observations from a re-analysis of the deposited data

How the results depend on the processing

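No Wnt gene changed direction in any of the 19 alternatives. With the threshold kept at 0.05, 23 of the 31 passed in all 17 of them; the other 8 were Wnt10a, Wnt11, Lgr5, Fzd6, Dkk3, Dvl1, Lef1 and Tcf7. The 6 higher Wnt genes became 3 with TMM factors and 2 with RLE factors. They became 2 at an adjusted p under 0.01 and 1 with a log2 fold change of at least 1. The 25 lower ones became 20 and 13 under these stricter rules. Of the other pathway genes, 20 higher became 13, 11, 10 and 7 under the same 4 settings. The 18 lower became 15 and 9 under the stricter rules. Over all genes tested, 3554 higher calls became 2976, 2763, 2716 and 1382 under those 4 settings. The 3189 lower calls became 2376 and 1398 under the stricter rules. TMM and RLE factors moved the median fold change down, and the stricter rules remove calls by construction. The log2 ratio of the summed ligand level, 0.16, became -0.011 with RLE factors. Leaving out 1 mouse gave 4 to 6 higher and 22 to 24 lower Wnt genes, and 15 to 19 higher and 16 to 18 lower other pathway genes. Adjustment over 19407 genes left 5 higher and 22 lower Wnt genes. Wnt11, Lgr5, Dkk3 and Dvl1 did not pass under it (edgeR adjusted p from 0.0667 to 0.0768). Sample numbers did not pair the mice: same-numbered deviations correlated at -0.19, 0.13 and -0.10, and not every mouse correlated best with its own number. With the number as a block, 5 higher and 24 lower Wnt genes passed (Tcf7 and Dvl1 did not), and 15 higher and 18 lower other pathway genes. Calls over all genes went from 6743 to 6103. No control has the number of KA 4, so KA 4 added nothing to that contrast. The titles also carry a letter, which KA 4 shares with control 3 and KA 3. A block by letter was not tried. Low counts limit Rspo3, Wnt7a, Nkd1 and Lef1.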
